A study of Mus musculus with 12 samples.

Results

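The tumor necrosis factor (TNF) superfamily was followed in kidneys of mice with polycystic kidney disease (PKD), with and without Caspase-1. The genes were taken by symbol alone. They are the numbered Tnfsf ligands and Tnfrsf receptors, the TRAF adaptors Traf1 to Traf7, and the members that carry other names (Tnf, Lta, Ltb, Fasl, Cd40lg and Cd70 among the ligands, Fas, Cd27, Cd40, Ltbr, Ngfr and Eda2r among the receptors). This gave 52 of the 35275 genes in the deposited table. They comprised 18 ligand genes, 26 receptor genes, 7 TRAF genes and 1 antisense RNA gene, Tnfsf13os, which lies across Tnfsf12 and Tnfsf13.

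TNF ligands are mostly trimeric proteins that are displayed on, or shed from, immune and stromal cells. Their receptors carry cysteine-rich ectodomains and signal either through cytoplasmic death domains or by recruiting TRAFs, which lead to the canonical NF-kB pathway, the NF-kB-inducing kinase Map3k14 and the non-canonical pathway, MAP kinases or cell death. In the kidney the family is known for inflammation and tubular injury, and TNF itself has been detected in cyst fluid of patients with PKD.

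Poly(A) RNA was sequenced from kidneys of 12 mice of the C57BL/6J strain, 4 in each of 3 groups, all 6 months of age and with 2 females and 2 males per group. WT mice carried normal Pkd1. RC/RC mice were homozygous for a hypomorphic missense Pkd1 knock-in that gives slowly progressive cystic disease. RC/RC:Casp1KO mice carried the same Pkd1 genotype and were also homozygous for a germline Casp1 deletion, made with TALENs, that removes the active-site cysteine codon and a splice donor. It is 1 of several deletions that were made, and the germline allele is present in every cell type. WT mice without Casp1 were not among the groups, so the effect of the deletion outside cystic disease was not measured. The deposited columns name the mice B6_2, B6_3, B6_4 and B6_6 (WT), RC105, RC139, RC140 and RC143 (RC/RC), and Del3_42, Del3_60, Del3_70 and Del3_105 (RC/RC:Casp1KO). These names do not give sex, and values per mouse follow this order throughout. Libraries held between 18019819 and 24869454 reads on genes.

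Levels per mouse are given as CPM, the read count relative to the TMM-scaled library size, and levels that are compared between genes are given as FPKM, which divides by gene length. Casp1 measured 2.06, 1.29, 1.30 and 1.41 CPM in the 4 WT mice, and 3.37, 3.84, 4.26 and 2.62 CPM in the 4 RC/RC mice. It measured 0.665, 0.385, 1.05 and 0.664 CPM in the 4 RC/RC:Casp1KO mice. The 3 groups did not overlap, and all RC/RC:Casp1KO mice lay below all others. This gave a log2 fold change of 1.21 ± 0.25 (SE) in RC/RC against WT (edgeR adjusted p = 0.0142, or 0.11 without WT mice B6_4 and B6_6 and from 0.00057 over the alternatives) and -2.35 ± 0.32 in RC/RC:Casp1KO against RC/RC (edgeR adjusted p = 0.00514). The remaining 10 to 23 reads per RC/RC:Casp1KO mouse can lie outside the deletion. Pkd1, whose RC allele is still transcribed, had a mean of 52.9 ± 13.4 CPM (SD, n = 4) in WT and 55.3 ± 9.70 CPM in RC/RC mice.

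The tissue label was checked against marker lists. All 11 markers of kidney epithelium were detected in each mouse, led by Slc34a1, the proximal tubule phosphate transporter. Their summed level was 4235 to 4790 FPKM in WT, 2628 to 3665 in RC/RC and 4073 to 4815 in RC/RC:Casp1KO mice. A library of each PKD group stood apart within its group. RC/RC:Casp1KO mouse Del3_70 had a summed level of 118 FPKM for 8 B and plasma cell markers, led by the J chain gene Igj, against 42.3 to 51.5 in the other 3 mice of its group. The corresponding sums were 17.6 against 5.90 to 7.33 FPKM for 11 T and NK cell markers, led by Lck, and 242 against 82.5 to 116 FPKM for 13 macrophage and dendritic cell markers, led by the complement gene C1qa. In the RC/RC mice these 3 lists spanned 104.8 to 194, 8.34 to 24.8 and 190 to 281 FPKM, so mouse Del3_70 lay within the RC/RC range for each of them. Among the RC/RC mice, RC139 had 567 FPKM for the fibroblast and pericyte markers against 223 to 317 in the other 3, 194 against 104.8 to 129 for the B and plasma cell markers, 24.8 against 8.34 to 15.5 for the T and NK cell markers, and the lowest kidney epithelium sum. A further difference ran within WT. Noncoding genes other than Xist held 0.971% and 0.878% of reads in WT mice B6_2 and B6_3, against 1.64% and 1.55% in WT mice B6_4 and B6_6. Counts of called members are given with and without these libraries. For RC/RC:Casp1KO against WT, mouse Del3_70 enters only the range over fits that left out single mice.

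**Figure D1:**
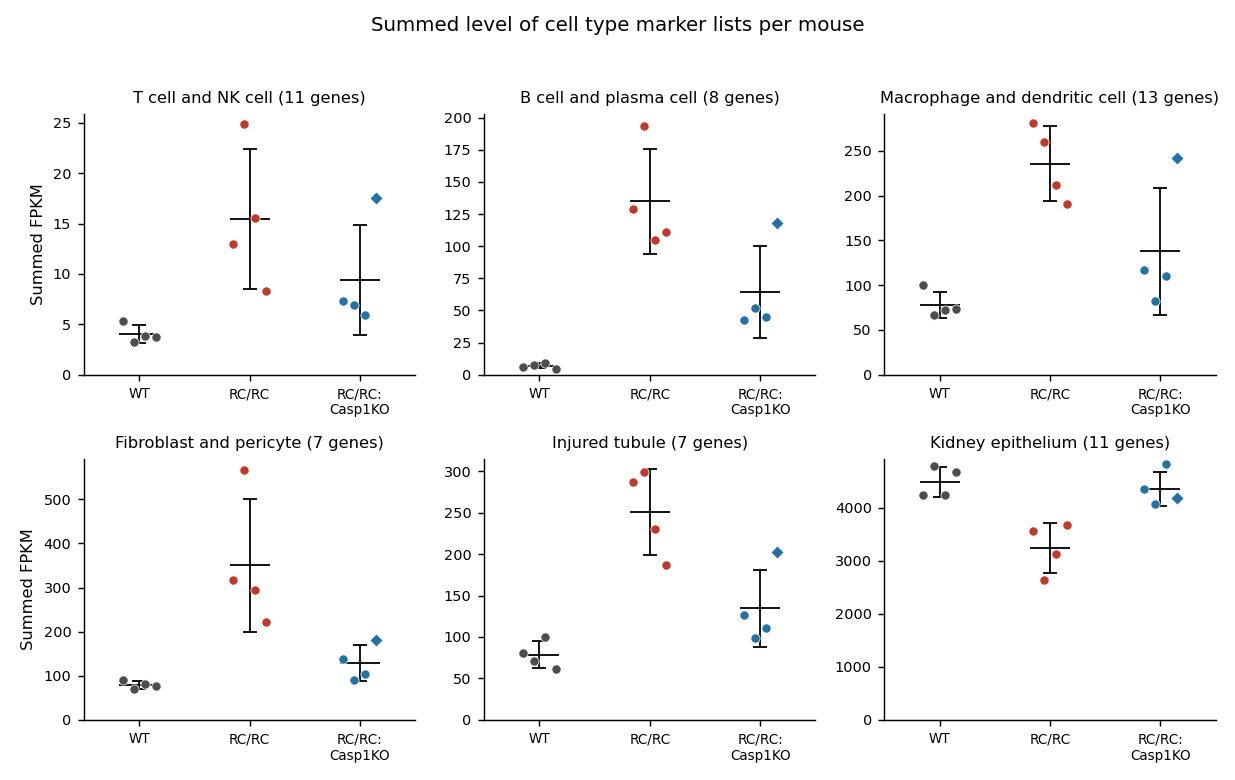
Summed FPKM (vertical axis) of 6 cell type marker lists in each mouse, by group, with the mean and SD as bars. Diamonds mark RC/RC:Casp1KO mouse Del3_70, which lies above the other mice of its group for the immune lists, at 118 FPKM for B and plasma cell markers against 42.3 to 51.5.

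The most abundant members per gene length were receptors. Tnfrsf21 (death receptor 6) led in WT kidneys with 124 ± 25.7 FPKM (SD, n = 4), followed by the lymphotoxin beta receptor gene Ltbr with 39.9 ± 3.29 FPKM and the TNF receptor 1 gene Tnfrsf1a with 30.0 ± 6.36 FPKM. The Tnfrsf21 mean exceeded the Ltbr mean by more than the SD of either, and so did the gap from Ltbr to Tnfrsf1a. The adaptor Traf4 (22.7 ± 2.03 FPKM) and the TWEAK receptor gene Tnfrsf12a (16.2 ± 2.84 FPKM) came next. Their distance was also larger than their spread. Among the ligands, Tnfsf10 (TRAIL) led with 10.3 ± 2.01 FPKM, and Tnfsf12 (TWEAK) followed with 5.14 ± 1.05 FPKM.

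At the low end, Cd70 had no read in any mouse. The filter on low counts left 11 members out of every comparison, with at most 14 reads in any mouse. These were the ligand genes Cd40lg, Cd70, Fasl, Lta, Tnfsf4, Tnfsf11 and Tnfsf18, the readthrough gene Tnfsf12Tnfsf13, and the receptor genes Tnfrsf8, Tnfrsf13c and Tnfrsf17. The tests covered 38 members in RC/RC against WT, 41 in RC/RC:Casp1KO against RC/RC and 37 in RC/RC:Casp1KO against WT, and 36 members entered all 3 comparisons. A member can pass this filter through the group where it is high, so the tested members are not a random sample of the 52.

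**Figure D2:**
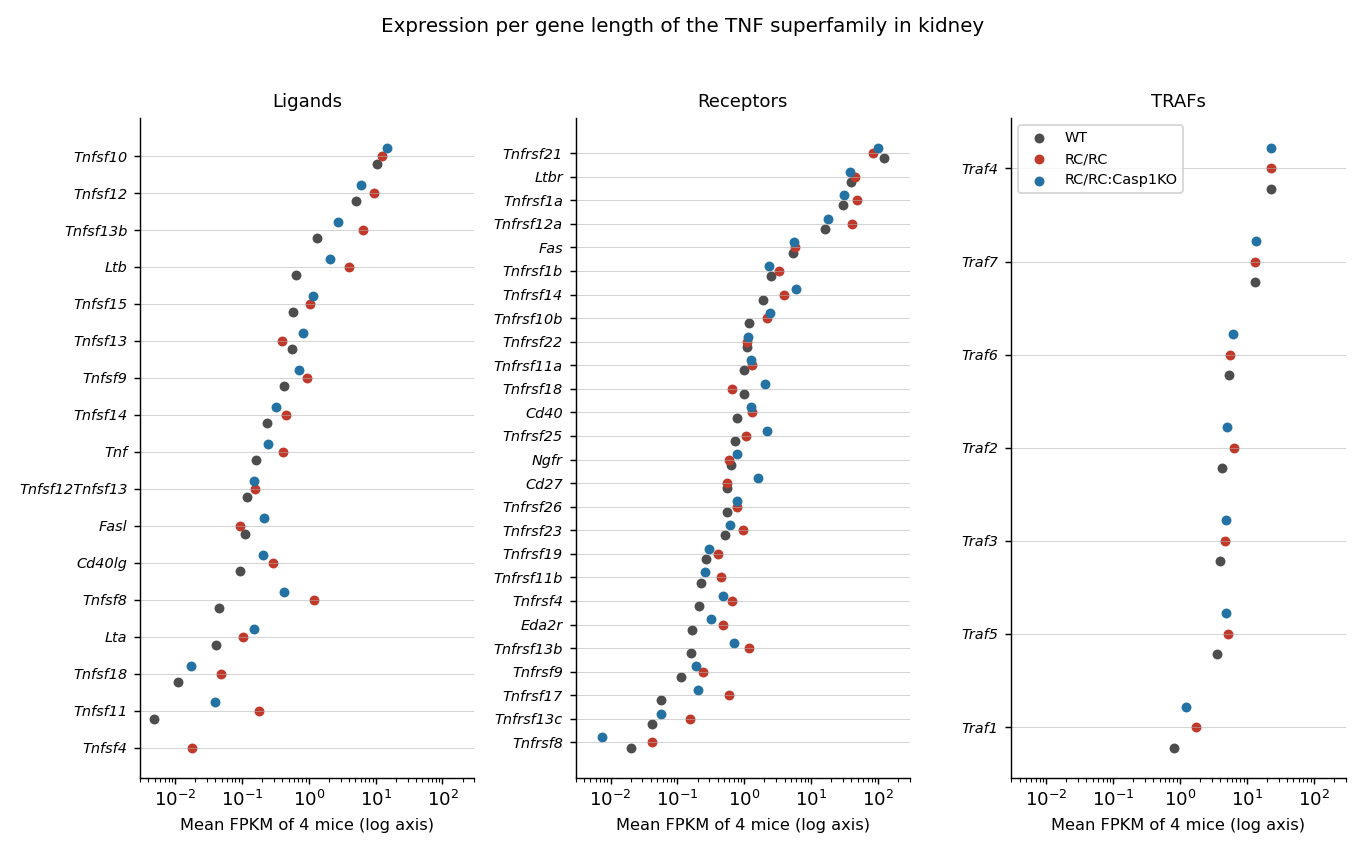
Mean FPKM of 4 mice per group on a log axis for ligands, receptors and TRAFs, ordered by the WT level. Group means of 0 are not drawn, and Cd70 is absent. Tnfrsf21, Ltbr and Tnfrsf1a lead the receptors, and Tnfrsf12a stands at 16.2, 40.8 and 17.8 FPKM in WT, RC/RC and RC/RC:Casp1KO mice.

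Promoters from RefSeq (250 bases before to 50 after the start site, GRCm38.p6, the assembly of mm10) were searched on both strands. Promoters were found for 40 of the 52 members, 44 in all. The kappaB consensus was in 5 of these 44 (11.4%) against 8.46% of all 32851 mouse promoters, the E-box CACGTG in 7 (15.9%) against 7.15%, and the TEAD motif CATTCC in 7 (15.9%) against 14.7%. The sequences of 3 called members with different courses are shown. The first is Ltb, upregulated in RC/RC and high in mouse Del3_70 (chr17:35194257-35194556, plus strand). The second is Tnfrsf12a, called in RC/RC against WT and in RC/RC:Casp1KO against RC/RC (chr17:23677400-23677699, minus strand), and the third is Eda2r, called in RC/RC against WT (chrX:97377160-97377459, minus strand). Capitals mark a match to any of the 3 motifs.
Ltb: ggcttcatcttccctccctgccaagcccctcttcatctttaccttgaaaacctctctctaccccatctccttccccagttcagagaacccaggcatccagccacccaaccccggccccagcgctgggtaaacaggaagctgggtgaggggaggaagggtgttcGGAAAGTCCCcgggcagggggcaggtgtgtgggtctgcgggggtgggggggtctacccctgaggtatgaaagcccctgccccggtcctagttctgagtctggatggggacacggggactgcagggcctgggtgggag
Tnfrsf12a: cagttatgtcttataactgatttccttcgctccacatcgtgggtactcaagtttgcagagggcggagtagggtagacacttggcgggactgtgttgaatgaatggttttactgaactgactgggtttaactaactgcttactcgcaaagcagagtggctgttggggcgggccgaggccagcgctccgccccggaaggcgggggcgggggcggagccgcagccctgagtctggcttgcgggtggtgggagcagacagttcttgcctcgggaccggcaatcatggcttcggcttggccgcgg
Eda2r: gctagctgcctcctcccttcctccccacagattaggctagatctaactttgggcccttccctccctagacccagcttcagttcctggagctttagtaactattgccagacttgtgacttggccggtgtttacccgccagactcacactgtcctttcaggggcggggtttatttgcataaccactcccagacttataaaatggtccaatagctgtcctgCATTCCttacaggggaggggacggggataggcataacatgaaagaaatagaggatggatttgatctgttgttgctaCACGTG
The Ltb window holds 1 kappaB match, GGAAAGTCCC, on the minus strand at position -87 from the start site. The Eda2r window holds CATTCC at position -32 and CACGTG at position 45, and the Tnfrsf12a window holds none of the 3 motifs. A match describes the letters only, and occupancy was not measured.

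The first comparison asked which members differed in cystic kidneys. Between RC/RC and WT, 7 of the 38 tested members (18.4%) were upregulated and 0 were downregulated. Of all 15243 genes tested, 12.9% were called in either direction, 9.76% upregulated and 3.18% downregulated. The upregulated members were 4 ligand genes (Tnfsf8, Ltb, Tnfsf13b and Tnfsf12) and 3 receptor genes (Tnfrsf13b, Eda2r and Tnfrsf12a). The median log2 fold change of the tested members was 0.50, beside -0.02 for all genes tested, and 28 of the 38 were positive against 47.8% of all genes. Without overlap between groups, 14 tested members were higher in RC/RC (12.7% of all genes) and 1 was lower (6.58% of all genes). At an unadjusted p under 0.05, 15 were higher (17.3% of all genes) and 1 was lower (12% of all genes). DESeq2, which tested 51 members, called 14 higher and 1 lower, beside 8.47% and 4.35% of all genes. Leaving out 1 mouse gave 5 to 12 higher, with 12 without mouse RC143, where 11.5% of all genes were higher. Without WT mice B6_2 and B6_3, 7 were called higher beside 7.04% of all genes, and without WT mice B6_4 and B6_6, 5 were called higher beside 4.39%.

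Among the ligand genes, 4 of 9 tested members (44.4%) were called, all higher, beside 9.76% of all genes higher and 12.9% in either direction. Their median log2 fold change was 0.80. Lymphotoxin beta, the product of Ltb (ENSMUSG00000024399, chr17:35194439-35196320 in mm10, plus strand), is the membrane anchor of the lymphotoxin heterotrimer that binds Ltbr and organizes lymphoid tissue. Ltb measured 1.00, 0.574, 1.30 and 0.984 CPM in the 4 WT mice, and 4.96, 9.05, 5.23 and 3.14 CPM in the 4 RC/RC mice. Each RC/RC mouse lay above each WT mouse for this gene. On the log2 scale the fold change was 2.52 ± 0.38 (edgeR adjusted p = 0.00325). Its receptor gene Ltbr was at 81.0 to 96.5 CPM in WT and 82.7 to 104 CPM in RC/RC mice, which overlapped. In RC/RC:Casp1KO mice Ltbr was at 73.7 to 78.9 CPM, below both. In the edgeR fits of the 8 mice of each comparison, it was called against neither RC/RC nor WT (edgeR adjusted p = 0.0721 and 0.172). DESeq2, the edgeR fit of all 12 mice and edgeR without mouse RC105 called Ltbr lower than in RC/RC mice.

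Tnfsf8 (ENSMUSG00000028362, chr4:63831308-63861347, minus strand) encodes the CD30 ligand, a costimulatory ligand of activated lymphocytes and myeloid cells. It measured 0.191, 0, 0.250 and 0.281 CPM in the 4 WT mice, which is 0 to 6 reads, and 3.92, 7.31, 4.42 and 2.36 CPM in the 4 RC/RC mice. The groups were far apart, with a log2 fold change of 4.59 ± 0.61 (edgeR adjusted p = 0.00189), the highest of the tested members in this comparison. Because a WT mouse had no read, the size of this fold depends on the prior count. The CD30 gene itself, Tnfrsf8, had at most 5 reads in any mouse and did not pass the filter of any comparison. DESeq2 and edgeR on genes with at least 1 count, which both tested it in RC/RC against WT, did not call it.

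Tnfsf13b (ENSMUSG00000031497, chr8:10006843-10035441, plus strand) encodes BAFF, the survival factor of B cells. It measured 1.63, 0.814, 1.05 and 1.73 CPM in the 4 WT mice, against 5.93, 8.99, 5.50 and 3.22 CPM in the 4 RC/RC mice. The groups did not overlap, and mouse RC143 was again the lowest of the RC/RC mice. The fit gave a log2 fold change of 2.16 ± 0.37 (edgeR adjusted p = 0.00558). BAFF is bound by 3 receptors. Tnfrsf13b, which encodes TACI, is described with the called receptors, while the BAFF receptor gene Tnfrsf13c had 0 to 4 reads in WT and 3 to 10 reads in RC/RC mice and 0 to 5 in RC/RC:Casp1KO mice. Tnfrsf17, the gene of the plasma cell receptor BCMA, was at or under 3 reads in each WT mouse. Taking 3 reads per library as a floor, its level was at least 3.3-fold higher in RC/RC mice. DESeq2, which tested it, called it higher.

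Tnfsf12 (ENSMUSG00000097328, chr11:69686250-69695849, minus strand) encodes TWEAK, which acts on epithelial and mesenchymal cells. It measured 9.47, 8.86, 6.04 and 6.75 CPM in the 4 WT mice, and 13.5, 16.9, 12.9 and 10.2 CPM in the 4 RC/RC mice. Each RC/RC mouse was above each WT mouse, with a smaller gap than for Ltb, Tnfsf8 and Tnfsf13b. The log2 fold change was 0.78 ± 0.20 (edgeR adjusted p = 0.0338). This call was lost in 6 of the 8 fits that left out 1 mouse, where adjusted p ranged from 0.0197 to 0.0972. Tnfsf12 overlaps the readthrough gene and the antisense RNA, and whether the counting used strand is not given in the sources used here, so its reads cannot be told apart fully from theirs.

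TNF itself was scarce. Tnf (ENSMUSG00000024401, chr17:35199381-35202007, minus strand) had 0.335, 0.287, 0.350 and 0.141 CPM in the 4 WT mice, and 0.310, 0.631, 1.13 and 0.644 CPM in the 4 RC/RC mice. These are 3 to 7 and 8 to 21 reads per mouse, the groups overlapped, and the gene did not pass the filter of this comparison. Tnfsf11, which encodes RANKL, the ligand that drives osteoclasts, had 1 read in 1 WT mouse and 5 to 12 reads in each RC/RC mouse, a level at least 2.72-fold higher over the floor of 3 reads. DESeq2 and edgeR on genes with a single count or more, which both tested it, called it higher. Cd40lg, the CD40 ligand gene, had 1 to 4 reads per WT mouse and 5 to 10 per RC/RC mouse, and Tnfsf18, the GITR ligand gene, 0 to 1 and 1 to 4 reads. For both genes the RC/RC mice lay above the WT mice in CPM, by a gap of less than 1 read in the nearest mice, and neither was called by these 2 fits. The remaining ligand genes that were tested, Tnfsf9, Tnfsf10, Tnfsf13, Tnfsf14 and Tnfsf15, had adjusted p from 0.0616 for Tnfsf15 to 0.453 for Tnfsf10 by the same edgeR test.

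**Figure D3:**
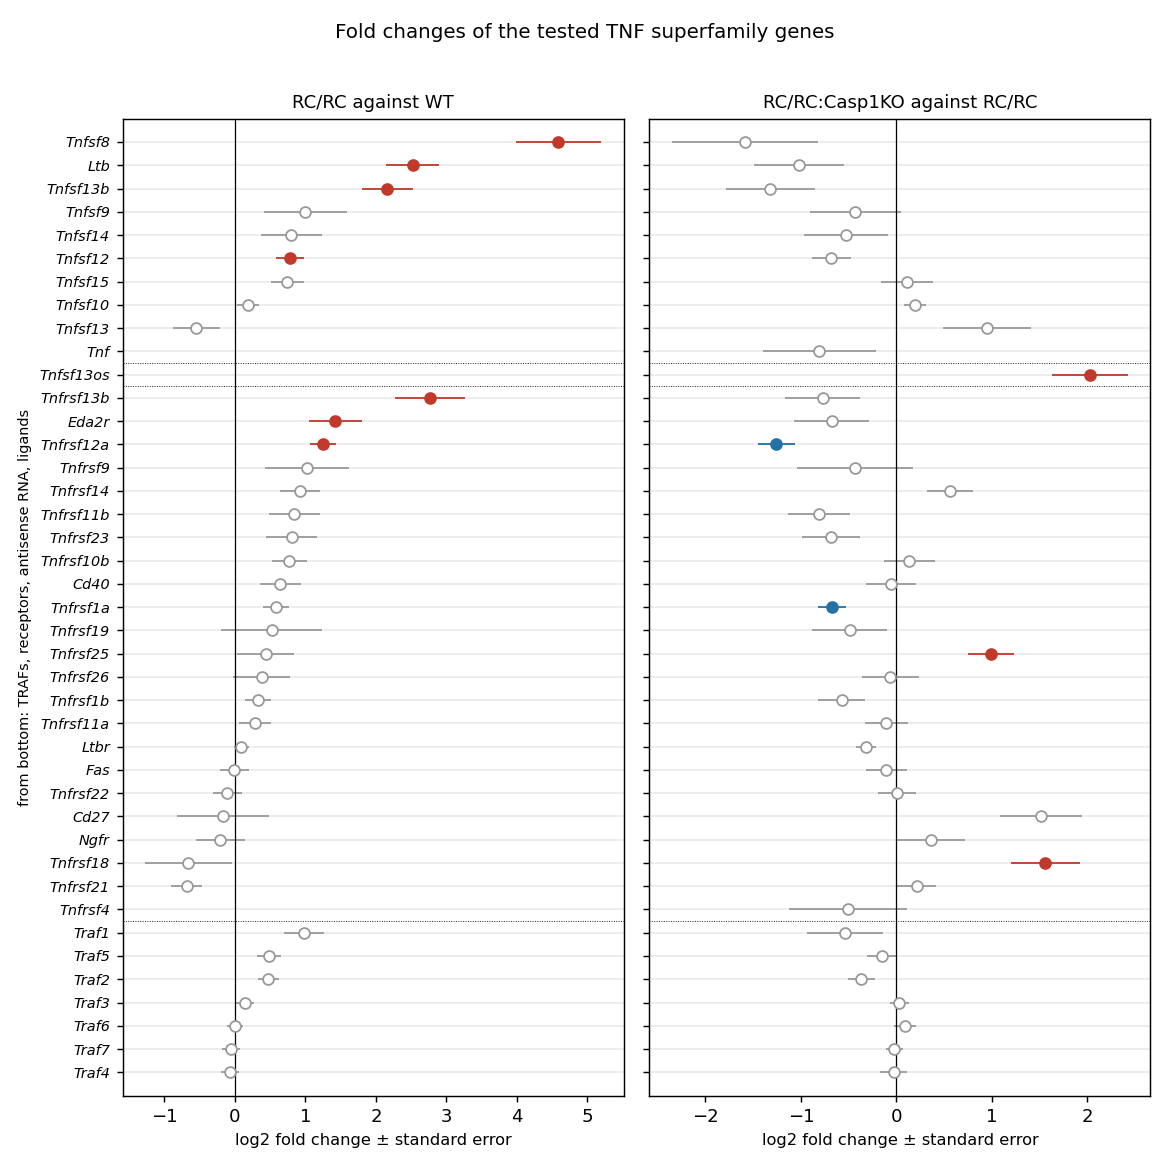
Log2 fold change ± SE (horizontal axis) of the tested members in RC/RC against WT (left) and RC/RC:Casp1KO against RC/RC (right), with TRAFs at the bottom, then receptors, the antisense RNA and ligands. Filled red points were called higher and filled blue points lower. On the left 7 members are red, and on the right 3 are red and 2 (Tnfrsf12a and Tnfrsf1a) are blue.

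Of the 22 tested receptor genes, 3 (13.6%) were called, all higher, beside 9.76% of all genes higher and 12.9% in either direction, so the receptor count was near the background. Their median log2 fold change was 0.48. Tnfrsf12a (ENSMUSG00000023905, chr17:23675447-23677449, minus strand) encodes Fn14, the small TWEAK receptor that is induced in injured epithelium and regenerating tissue. It measured 19.4, 13.2, 17.0 and 16.0 CPM in the 4 WT mice, and 30.6, 41.3, 50.7 and 33.7 CPM in the 4 RC/RC mice. The lowest RC/RC mouse was above the highest WT mouse by more than the whole WT range. With 275 to 406 reads per WT mouse and 784 to 940 per RC/RC mouse it was the deepest of the called members here. This gave a log2 fold change of 1.25 ± 0.18 (edgeR adjusted p = 0.00295), and the call held in all 16 alternative fits, with adjusted p up to 0.0377. In GENCODE vM39 the transcripts of Tnfrsf12a share 605 bases with the neighboring gene Hcfc1r1, which had a log2 fold change of 0.47 ± 0.19 (edgeR adjusted p = 0.131). Reads from the shared stretch cannot be assigned to 1 of the genes by sequence.

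Tnfrsf13b (ENSMUSG00000010142, chr11:61126755-61149372, plus strand) encodes TACI, a receptor for BAFF and APRIL on B cells and plasma cells. It measured 0.909, 0.191, 0.449 and 0.141 CPM in the 4 WT mice, and 2.56, 3.52, 2.27 and 3.35 CPM in the 4 RC/RC mice. The groups did not overlap, and the log2 fold change was 2.77 ± 0.50 (edgeR adjusted p = 0.00728). Without WT mice B6_4 and B6_6 the adjusted p was 0.051, and over all alternatives it ranged from 8.03e-07 to 0.051.

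Eda2r (ENSMUSG00000034457, chrX:97333840-97377216, minus strand) encodes the ectodysplasin A2 receptor, a TRAF-binding receptor without a death domain and a known p53 target. It measured 1.15, 0.479, 0.549 and 1.17 CPM in the 4 WT mice, and 2.56, 3.10, 1.78 and 1.63 CPM in the 4 RC/RC mice. No RC/RC mouse reached down into the WT range. On the log2 scale the fold change was 1.42 ± 0.38 (edgeR adjusted p = 0.0381), and this call was lost in 6 of the 8 fits that left out 1 mouse (adjusted p 0.0336 to 0.112).

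The TNF receptors themselves did not pass the threshold. Tnfrsf1a (ENSMUSG00000030341, chr6:125349362-125362484, plus strand), the death domain receptor through which TNF activates NF-kB or cell death, measured 83.5, 77.9, 57.6 and 53.8 CPM in the 4 WT mice. It measured 102, 125, 103 and 79.2 CPM in the 4 RC/RC mice. The ranges touched only through RC/RC mouse RC143 and WT mouse B6_2. The fit gave a log2 fold change of 0.58 ± 0.18 (edgeR adjusted p = 0.0637), and 4 of 16 alternatives called it. Tnfrsf1b, the TRAF2-binding TNF receptor 2 of leukocytes and endothelium, measured 13.2, 9.33, 8.29 and 9.09 CPM in the 4 WT mice, and 12.7, 15.5, 11.1 and 10.9 CPM in the 4 RC/RC mice. The groups overlapped, and the log2 fold change was 0.33 ± 0.18 (edgeR adjusted p = 0.27).

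RANK and its decoy were also measured. Tnfrsf11a, the RANK gene, was at 4.98, 3.59, 6.44 and 6.14 CPM in the 4 WT mice, and at 6.44, 6.47, 5.13 and 7.77 CPM in the 4 RC/RC mice. Tnfrsf11b, which encodes the soluble decoy osteoprotegerin, was at 0.765, 0.814, 0.649 and 0.469 CPM in the 4 WT mice, and at 1.51, 1.74, 0.755 and 0.859 CPM in the 4 RC/RC mice. Both overlapped between groups, and neither was called (edgeR adjusted p = 0.437 and 0.155). In the 4 RC/RC:Casp1KO mice Tnfrsf11a measured 4.71, 4.81, 8.22 and 6.31 CPM, and Tnfrsf11b measured 0.665, 0.654, 0.682 and 0.759 CPM. These again overlapped the RC/RC mice for Tnfrsf11a, and for Tnfrsf11b by a single RC/RC mouse.

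The single member below WT without overlap was the most abundant one. Tnfrsf21 (ENSMUSG00000023915, chr17:43016555-43089188), which encodes a death domain receptor, measured 456, 634, 384 and 431 CPM in the 4 WT mice, and 353, 263, 203 and 368 CPM in the 4 RC/RC mice. The gap between the nearest mice of the groups was small beside the spread within each. The log2 fold change was -0.69 ± 0.22, and it was not called (edgeR adjusted p = 0.0745). DESeq2 and the edgeR fit of all 12 mice called it lower. Of 11 kidney epithelium markers, 4 were called lower in RC/RC mice and 0 higher, beside 3.18% and 9.76% of all genes. However, 2 collecting duct genes, Aqp2 and Scnn1g, had log2 fold changes of 1.05 ± 0.34 and 0.51 ± 0.21 (edgeR adjusted p = 0.0739 and 0.148). The count called lower was 1 without WT mouse B6_6 or mouse RC140 (1.34% and 1.37% of all genes) and 2 with library size alone (1.73%). DESeq2 called 1 marker higher (8.47% of all genes). The part of epithelial content in the Tnfrsf21 difference was not tested.

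The TRAFs carry the signal from most of these receptors. By edgeR, 0 of 7 were called in any of the 3 comparisons, where 12.9%, 11.6% and 2.03% of all genes were called. Their median log2 fold change in RC/RC against WT was 0.14, and at an unadjusted p under 0.05, 3 were higher and 0 lower (17.3% and 12% of all genes). DESeq2 called Traf1 there. In RC/RC:Casp1KO against RC/RC, 0 were higher and 1 was lower at an unadjusted p under 0.05 (15.3% and 16.4% of all genes), and in RC/RC:Casp1KO against WT, 1 was higher and 0 lower (11.8% and 9.99% of all genes). DESeq2 called no TRAF in those comparisons. Traf2 (chr2:25517982-25546940, minus strand), the adaptor that links TNF receptors to ubiquitin ligases, measured 20.4, 17.5, 18.2 and 18.8 CPM in the 4 WT mice. It measured 22.2, 30.2, 30.9 and 21.5 CPM in the 4 RC/RC mice, above WT without overlap, and 21.0, 19.9, 19.6 and 20.7 CPM in the 4 RC/RC:Casp1KO mice, below RC/RC. This gave a log2 fold change of 0.47 ± 0.15 (edgeR adjusted p = 0.0633), and 4 of 16 alternatives called it. Traf1, an NF-kB target without a RING domain, and Traf5, a relative of Traf2, also did not overlap between these groups (edgeR adjusted p = 0.052 and 0.106). By edgeR, Traf1 was called with library size alone and without mouse RC143, and Traf5 in the fit of all 12 mice and without mouse RC143. Traf6, which serves RANK and the interleukin-1 receptor, ran from 32.1 to 37.9 CPM in WT, 30.4 to 39.3 in RC/RC and 32.6 to 41.3 in RC/RC:Casp1KO mice, with overlap between all groups.

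Markers of immune and stromal cells moved in the same comparison, where 9.76% of all genes were called higher. RC/RC kidneys had higher levels, by the test, of 8 of 10 tested T and NK cell markers, 6 of 7 B and plasma cell markers and 11 of 13 macrophage and dendritic cell markers. They also had higher levels of 7 of 7 fibroblast and pericyte markers and 6 of 7 injured tubule markers, whereas 0 of 5 endothelial and 0 of 3 neutrophil markers were called, with 2 and 1 higher at an unadjusted p under 0.05 and 1 of each called higher by DESeq2. These counts moved when mice were left out. Without WT mice B6_4 and B6_6, 1 T and NK cell, 4 B and plasma cell, 6 macrophage and dendritic cell and 4 fibroblast and pericyte markers were called higher, and without WT mice B6_2 and B6_3 the counts were 4, 2, 9 and 4. With 1 mouse left out, they ranged from 4 to 9, 3 to 5, 9 to 11 and 5 to 7. The T and NK cell count was 4 or 5 without WT mouse B6_3, B6_4 or B6_6 or without mouse RC139 or RC140, and the B and plasma cell count was 3 without WT mouse B6_2 or B6_3 or mouse RC139. The summed B and plasma cell level was 4.43 to 9.33 FPKM in WT and 104.8 to 194 FPKM in RC/RC mice, and the summed T and NK cell level was 3.19 to 5.36 and 8.34 to 24.8 FPKM. The macrophage and dendritic cell sum was 66.2 to 99.6 FPKM in WT and 190 to 281 FPKM in RC/RC mice. Fibroblast and pericyte markers, led by Dcn, summed to 68.8 to 90.6 FPKM in WT, 223 to 567 in RC/RC and 89.4 to 182 in RC/RC:Casp1KO mice, and injured tubule markers, led by Krt8, to 61.6 to 99.9, 187 to 299 and 98.7 to 202 FPKM. Endothelial markers, led by Pecam1, summed to 73.5 to 97.7, 91.0 to 140 and 81.6 to 103 FPKM, and neutrophil markers, led by S100a8, to 0.735 to 3.69, 2.29 to 5.18 and 0.884 to 3.95 FPKM. Of the immune lists no gene was at 0 in all mice of a group except 1 neutrophil marker in WT and in RC/RC:Casp1KO. In bulk tissue, fewer cells of a type and less RNA per cell cannot be told apart. Mouse RC139, with the highest fibroblast, B cell and T cell sums, also had the highest level in the group of 6 of the 7 called members (Ltb, Tnfsf8, Tnfsf13b, Tnfsf12, Eda2r and Tnfrsf13b) and of Traf1. Without it, 5 members were called higher, beside 6.45% of all genes. Ltb, Tnfsf8, Tnfsf13b, Tnfrsf13b and Tnfrsf12a were called, with log2 fold changes of 2.16, 4.22, 1.86, 2.65 and 1.19, and Tnfsf12 and Eda2r were not (0.62 and 1.21, edgeR adjusted p = 0.095 and 0.112). The part of cell content in the differences of these members was not tested.

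**Figure D4:**
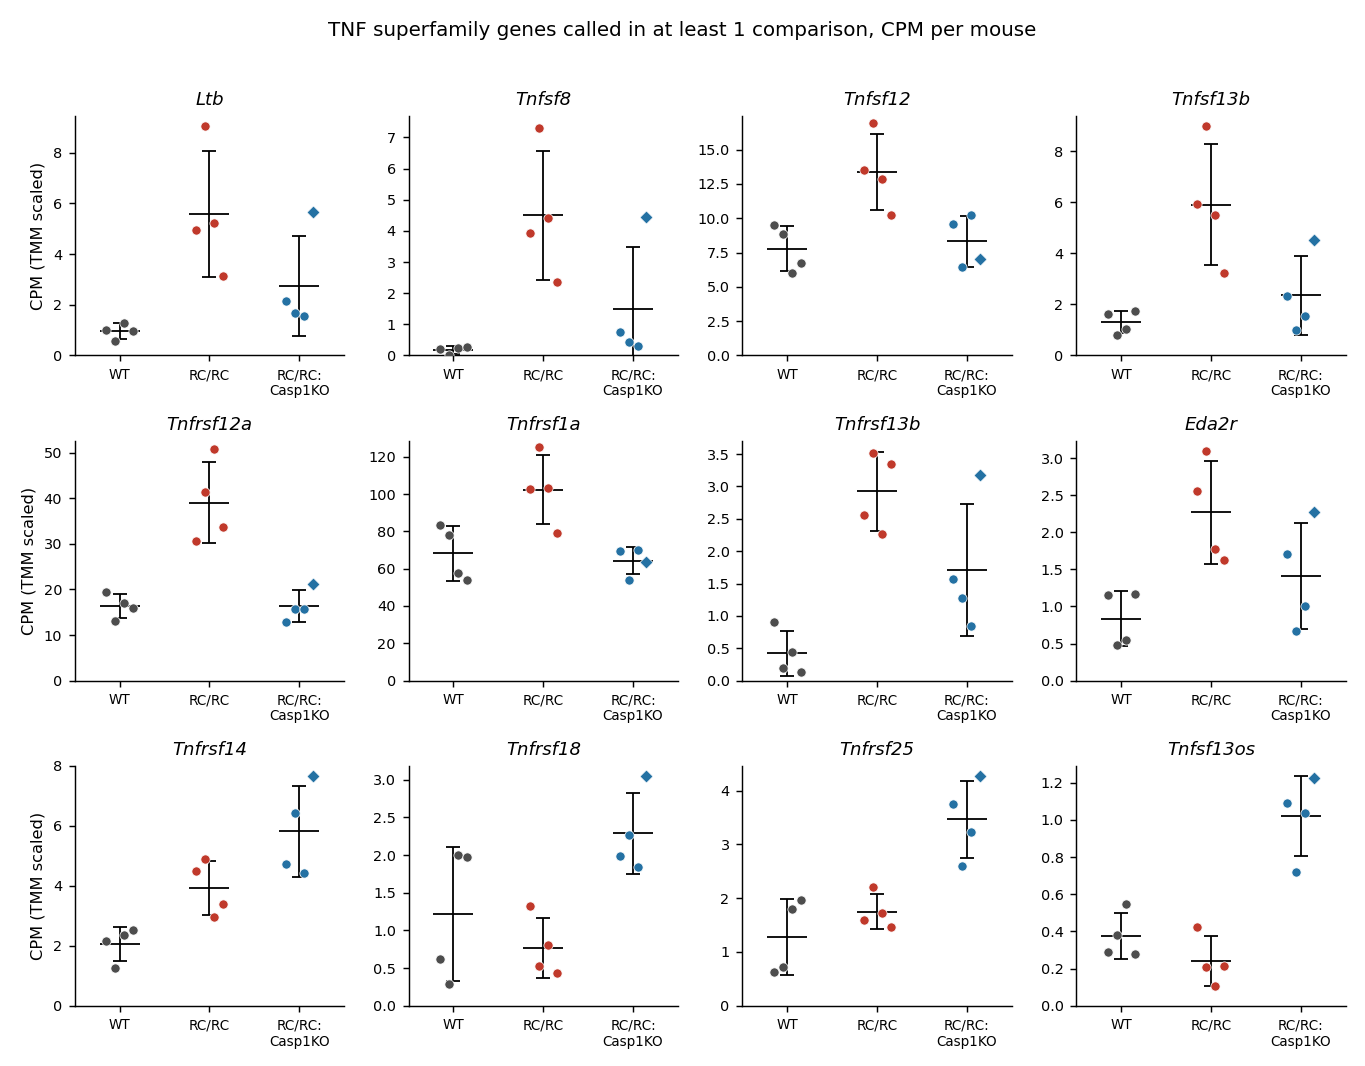
CPM (vertical axis, from 0) per mouse for the 12 members called in at least 1 comparison, with group means and SD as bars. Diamonds mark RC/RC:Casp1KO mouse Del3_70. Tnfrsf12a lies at 30.6 to 50.7 CPM in RC/RC mice and at 12.9 to 21.3 CPM in RC/RC:Casp1KO mice, while Ltb and Tnfsf8 are high in mouse Del3_70 alone within its group.

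The second comparison asked which members differed when Casp1 was deleted in cystic mice. It uses the same RC/RC mice as the first, so a high RC/RC value enters both. The test called 5 of 41 members in RC/RC:Casp1KO against RC/RC, 3 upregulated (7.32%) and 2 downregulated (4.88%). Of all 15428 genes tested, 11.6% were called, 7.23% upregulated and 4.41% downregulated, so the members' shares were near the background. The median log2 fold change of the tested members was -0.15, beside -0.03 for all genes, and 14 of the 41 were positive against 47.5% of all genes. Without overlap, 5 members were lower in RC/RC:Casp1KO mice (9.18% of all genes) and 4 were higher (11.3% of all genes). The counts depended on single mice. Without RC/RC:Casp1KO mouse Del3_70, 7 members were lower and 1 was higher, with 4.42% of all genes lower. Without RC/RC mouse RC139, 1 was lower and 3 were higher, with 0.864% and 3.93% of all genes. Without RC/RC mouse RC140 or RC/RC:Casp1KO mouse Del3_105, Tnfrsf12a was the single member called. The share of all genes called also moved between fits, so these counts are not read as a property of the members.

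Tnfrsf12a was downregulated to values that overlapped those of WT mice. It measured 15.6, 15.8, 21.3 and 12.9 CPM in the 4 RC/RC:Casp1KO mice, against the 30.6 to 50.7 CPM of the RC/RC mice. The groups were well separated, mouse Del3_70 included. On the log2 scale the fold change was -1.26 ± 0.20 (edgeR adjusted p = 0.00852), and the call held in all 14 alternatives (adjusted p up to 0.032). Against WT the log2 difference was 0.01 ± 0.18 (edgeR adjusted p = 0.984), with means of 16.4 ± 3.52 CPM in RC/RC:Casp1KO and 16.4 ± 2.59 CPM in WT mice (SD, n = 4). The neighbor Hcfc1r1 was also lower, by a log2 fold change of -0.72 ± 0.16 (edgeR adjusted p = 0.0262), and the part of shared reads was not tested. Its ligand gene Tnfsf12 measured 6.48, 10.2, 6.998 and 9.58 CPM in the 4 RC/RC:Casp1KO mice, with a log2 fold change of -0.68 ± 0.20 (edgeR adjusted p = 0.0568). The highest of these mice and the lowest RC/RC mouse met at 10.2 CPM. The fits held no term for sex, which the columns do not give. For Tnfrsf12a, qRT-PCR in the study found lower levels with the Casp1 knockout in females and no effect in males.

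Tnfrsf1a was the other downregulated member. It measured 54.1, 69.9, 63.6 and 69.6 CPM in the 4 RC/RC:Casp1KO mice, all below the lowest RC/RC mouse at 79.2 CPM. The fit gave a log2 fold change of -0.67 ± 0.15 (edgeR adjusted p = 0.0244). The call was lost in 5 of the 8 fits that left out 1 mouse (adjusted p 0.0175 to 0.066). Tnfrsf1b measured 6.26, 7.39, 13.2 and 6.88 CPM in the same 4 mice, where mouse Del3_70 stood apart, and was not called with all mice (log2 fold change -0.57 ± 0.24, edgeR adjusted p = 0.144). Without mouse Del3_70 the Tnfrsf1b log2 fold change was -0.87 and the gene was called lower (edgeR adjusted p = 0.021, with a range up to 0.34 over the alternatives). Leaving out the highest mouse of a group lowers its mean, so this call is no separate support. Tnf measured 0.277, 0.154, 0.863 and 0.237 CPM, again with mouse Del3_70 above the others, and its log2 fold change was -0.81 ± 0.59 (edgeR adjusted p = 0.376), or -1.60 without that mouse (edgeR adjusted p = 0.0977, with a range up to 0.695 over the alternatives).

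0 of the 10 tested ligand genes were called in RC/RC:Casp1KO against RC/RC by edgeR, beside 7.23% of all genes higher and 4.41% lower. Their median log2 fold change was -0.61. At an unadjusted p under 0.05, 2 were lower and 0 higher, beside 16.4% and 15.3% of all genes. DESeq2 called Tnfsf12 and Tnfsf13b lower. Ltb measured 1.66, 1.54, 5.68 and 2.13 CPM in the 4 RC/RC:Casp1KO mice. Tnfsf8 measured 0.443, 0.308, 4.45 and 0.759 CPM in these mice, and Tnfsf13b measured 0.997, 1.54, 4.54 and 2.32 CPM. In each case mouse Del3_70 lay within the RC/RC range, whereas mice Del3_42, Del3_60 and Del3_105 lay below every RC/RC mouse. Tnfrsf13b followed the same order with 1.27, 0.847, 3.18 and 1.57 CPM. The log2 fold changes with all mice were -1.02 ± 0.47 for Ltb, -1.59 ± 0.76 for Tnfsf8, -1.32 ± 0.46 for Tnfsf13b and -0.77 ± 0.39 for Tnfrsf13b (edgeR adjusted p = 0.171, 0.186, 0.0891 and 0.209). Without mouse Del3_70 they were -1.65, -3.15, -1.85 and -1.26, all called lower (edgeR adjusted p = 0.0309, 0.0113, 0.029 and 0.0426). Over the alternatives adjusted p reached 0.424, 0.39, 0.234 and 0.396. Leaving out the mouse with the highest value of its group lowers these fold changes by itself, so the calls without it are no separate support. Mouse Del3_70 is the library with RC/RC-like sums of immune markers, and the part of cell content in these values was not tested.

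Tnfrsf18, Tnfrsf25 and Tnfsf13os were higher in RC/RC:Casp1KO than in RC/RC mice. Tnfrsf18 (ENSMUSG00000041954, chr4:156026164-156028895, plus strand), which encodes GITR, a costimulatory receptor of regulatory T cells, measured 2.27, 1.85, 3.04 and 1.99 CPM in the 4 RC/RC:Casp1KO mice. It measured 1.32, 0.526, 0.809 and 0.430 CPM in the 4 RC/RC mice, and 0.622, 0.287, 2.00 and 1.97 CPM in the 4 WT mice. RC/RC:Casp1KO mice lay above RC/RC mice without overlap, and WT mice B6_4 and B6_6 lay within the RC/RC:Casp1KO range while WT mice B6_2 and B6_3 lay below it. The log2 fold change was 1.56 ± 0.36 (edgeR adjusted p = 0.0297), lost in 6 of the 8 fits that left out 1 mouse (adjusted p 0.0142 to 0.0794). Tnfrsf18 overlaps the antisense RNA gene Gm16008, which had a log2 fold change of 1.96 ± 0.32 in the same direction (edgeR adjusted p = 0.00956). Strand use in the counting is not given in the sources used here, so reads of the overlap cannot be told apart.

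Tnfrsf25 (ENSMUSG00000024793, chr4:152115934-152120119, plus strand), the gene of death receptor 3, which binds the product of Tnfsf15, measured 2.60, 3.23, 4.27 and 3.75 CPM in the 4 RC/RC:Casp1KO mice. It measured 1.59, 2.21, 1.73 and 1.46 CPM in the 4 RC/RC mice, and 0.622, 0.718, 1.80 and 1.97 CPM in the 4 WT mice. All RC/RC:Casp1KO mice were above all others, and the WT mice again fell into the same pairs. The log2 fold change against RC/RC was 0.99 ± 0.24 (edgeR adjusted p = 0.0335), lost in 5 of the 8 fits that left out 1 mouse (adjusted p 0.0414 to 0.0963). Its transcripts share 512 bases with Espn, which had a log2 fold change of -0.04 ± 0.13 (edgeR adjusted p = 0.853).

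Tnfsf13os (ENSMUSG00000085890, chr11:69682138-69691141, plus strand), the antisense RNA, measured 0.720, 1.04, 1.23 and 1.09 CPM in the 4 RC/RC:Casp1KO mice, and 0.426, 0.210, 0.108 and 0.215 CPM in the 4 RC/RC mice. The 4 WT mice lay at 0.287, 0.383, 0.549 and 0.281 CPM, overlapping RC/RC and below RC/RC:Casp1KO. At 2 to 27 reads per mouse over the whole series, the log2 fold change against RC/RC was 2.03 ± 0.39 (edgeR adjusted p = 0.0173). This call was lost without mouse RC140 or mouse Del3_105 (adjusted p 0.0118 to 0.0581 with 1 mouse left out). Cd27, a T cell costimulatory receptor gene named here after its values were seen, measured 1.88, 2.08, 3.41 and 1.99 CPM in the 4 RC/RC:Casp1KO mice against 0.892, 1.53, 0.432 and 0.430 CPM in the 4 RC/RC mice. The groups did not overlap, but its edgeR adjusted p of 0.05 did not pass, and it overlaps Vamp1, which was higher with a log2 fold change of 1.46 ± 0.18 (edgeR adjusted p = 0.00332). Antisense genes as a class held 0.098% to 0.115% of reads in RC/RC:Casp1KO mice and at most 0.0889% in any other mouse. The part of this difference in the values of Tnfsf13os, Tnfrsf18 and Cd27 was not tested.

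The third comparison set RC/RC:Casp1KO against WT and shares its mice with the other 2. Of 37 tested members, 1 was called (2.7%), upregulated, and 0 downregulated. Of all 15346 genes tested 2.03% were called, 1.13% upregulated and 0.893% downregulated. The called member was Tnfrsf14 (ENSMUSG00000042333, chr4:154922210-154928563, minus strand), which encodes HVEM, the receptor of LIGHT and a binding partner of the inhibitory receptor BTLA. It measured 2.15, 1.24, 2.35 and 2.53 CPM in the 4 WT mice, and 6.42, 4.42, 7.68 and 4.74 CPM in the 4 RC/RC:Casp1KO mice. The 4 RC/RC mice lay between them at 4.50, 4.89, 2.97 and 3.39 CPM and overlapped the RC/RC:Casp1KO mice. The log2 fold change against WT was 1.50 ± 0.28 (edgeR adjusted p = 0.0354), and it lay between 1.25 and 1.76 over the alternatives. The call was lost in all 8 fits that left out 1 mouse (adjusted p 0.0501 to 0.0922). At an unadjusted p under 0.05, 10 members were higher (11.8% of all genes) and 2 were lower (9.99% of all genes). Without overlap, 9 members were higher (7.47% of all genes) and 1 was lower (6.22% of all genes). DESeq2, which tested 50 members, called 8 higher, beside 3.35% of all genes.

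With the WT pairs taken apart, RC/RC:Casp1KO against WT gave different counts. Without WT mice B6_2 and B6_3, 0 members were called, and 0.25% of all genes were called higher. Without WT mice B6_4 and B6_6, 6 were called, 5 higher (Cd27, Tnfrsf14, Tnfrsf18, Tnfrsf25 and Tnfsf13os) and 1 lower (Ltbr), with 7.42% of all genes higher and 4.3% lower. The ligand Ltb remained above WT in each RC/RC:Casp1KO mouse, with a log2 difference of 1.52 ± 0.48 that was 0.88 without mouse Del3_70, and Tnfrsf13b had one of 2.02 ± 0.62, but neither was called by edgeR (adjusted p = 0.135 and 0.127), while DESeq2 called both.

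Downstream of the receptors, a list of 35 intracellular signalling genes was described in the same fits. In RC/RC against WT, 3 of 34 tested genes (8.82%) were called higher and 1 (2.94%) lower, near the 9.76% and 3.18% of all genes, with a median log2 fold change of 0.04. The count of 3 became 0 without WT mouse B6_6 and 1 without mouse RC139, and the 1 called lower became 0 without mouse RC140 and 2 without mouse RC143. Map3k14, the NF-kB-inducing kinase that TRAF2 and TRAF3 keep low, had a log2 fold change of 0.69 ± 0.15 (edgeR adjusted p = 0.0151). The necroptosis genes Ripk3 and Mlkl had log2 fold changes of 1.37 ± 0.33 and 0.92 ± 0.21 (edgeR adjusted p = 0.0266 and 0.0193). Map3k5, the stress kinase ASK1, fell by a log2 fold change of -0.49 ± 0.11 (edgeR adjusted p = 0.0162). With Casp1 deleted, 0 of 35 differed from RC/RC in edgeR and 6 in DESeq2 (3 in each direction), while 5 in each direction had an unadjusted p under 0.05, beside 15.3% of all genes higher and 16.4% lower. Without mouse Del3_70 or mouse RC105, 2 were called lower.

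The NF-kB genes were a second list. Among them 5 of 11 subunit and inhibitor genes (45.5%) were called higher in RC/RC against WT, beside 9.76% of all genes. The list had a median log2 fold change of 0.60. Relb and Nfkb2, the partners of the non-canonical pathway, had log2 fold changes of 1.29 ± 0.14 and 0.89 ± 0.13 (edgeR adjusted p = 0.000708 and 0.00277). The nuclear inhibitor family member Bcl3 had one of 1.74 ± 0.21 and Nfkbie one of 1.31 ± 0.20 (edgeR adjusted p = 0.00133 and 0.00357). Of 18 tested NF-kB target genes, 14 (77.8%) were called higher, beside the same 9.76% of all genes, with a median of 1.50. Of the 18, 15 were positive, but Sod2, the most abundant per gene length, had a log2 fold change of -0.15 ± 0.14 (edgeR adjusted p = 0.499). The count called higher was 8 when a minimum of 10 counts was required of all 8 mice, a filter that leaves fewer genes tested, and 10 to 15 under the other alternatives. The 4 smallest adjusted p were those of Lcn2, the tubular injury lipocalin (log2 fold change 5.54 ± 0.37), Vcam1, an adhesion molecule (1.68 ± 0.14), Csf1, the macrophage growth factor (1.48 ± 0.16), and Ccl2, the monocyte chemokine (3.56 ± 0.40), with edgeR adjusted p of 6.5e-05, 0.000208, 0.000721 and 0.000806. Lcn2 and Vcam1 are also on the injured tubule list.

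In RC/RC:Casp1KO against RC/RC, 1 of 11 subunit and inhibitor genes (Nfkb2) and 2 of 19 target genes (Csf1 and Mmp9) were called lower by edgeR. DESeq2 called 4 and 7 lower. Of all genes, 4.41% were called lower by edgeR and 5.91% by DESeq2, so the edgeR counts of 1 and 2 genes stand little above the background. Nfkb2 had a log2 fold change of -0.65 ± 0.18 (edgeR adjusted p = 0.049). These calls depended on single mice. Without mouse Del3_70, 5 of the subunits and inhibitors, 11 of the targets and 7 macrophage and dendritic cell markers (in place of 2) were called lower. In that fit 4.42% of all genes were called lower. Mouse Del3_70 was singled out by its high immune marker sums, so the macrophage and dendritic cell count without it is no separate support. Leaving out mouse RC139, RC140, Del3_42, Del3_60 or Del3_105 in turn left 0 called lower on each of these 3 lists, and so did library size alone. Those fits called 0.369% to 1.16% of all genes lower. With all mice, markers called lower in this comparison were 5 of 7 for fibroblasts and pericytes, 2 of 7 for injured tubule, 1 of 7 for B and plasma cells and 0 of 10 for T and NK cells, where 2 were lower at an unadjusted p under 0.05 and 0 by DESeq2. The fibroblast and pericyte count ranged from 1 (without mouse Del3_105) to 7 (without mouse RC143) and the injured tubule count from 0 (without mouse RC139, RC140, Del3_42, Del3_60 or Del3_105) to 5 (without mouse Del3_70). Of the kidney epithelium markers 3 of 11 were called higher, beside 7.23% of all genes. Of 7 related genes outside the naming rule, Relt, a TNF receptor relative, and Tnfaip8l2, a regulator of immune signalling, were called higher in RC/RC against WT. Their log2 fold changes were 1.83 ± 0.29 and 1.80 ± 0.28 (edgeR adjusted p = 0.00393 and 0.00408).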

How the data were processed

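Kidney RNA of 4 WT, 4 RC/RC and 4 RC/RC:Casp1KO mice was analyzed. The authors deposited 1 table of raw read counts per gene and mouse, with gene lengths and coordinates. The submitters' processing notes name CASAVA 1.8, STAR and mm10. The counting tool, annotation and strand setting are not given in the sources used here. The authors' FPKM, group means and DESeq2 fold changes and p-values were not used. Columns name group and mouse, not sex or replicate, so they were mapped to groups, and 0 columns were of unknown sample. All 18 pairs of mice within groups differed beyond counting error (chi-square per degree of freedom 15.7 to 128, over genes whose 2 counts sum to at least 20).

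Each comparison was fitted across all genes in its 8 mice with edgeR 4.0.16 (R 4.3.3, limma 3.58.1) by the quasi-likelihood test, with TMM factors and filterByExpr. Benjamini-Hochberg adjusted p under 0.05 over all genes tested was called. SE is the log2 fold change over the square root of F. CPM used TMM factors of 12 libraries, and FPKM is the count over length and library total. Reads of 3 per library were taken as a floor (0.144 CPM in WT), which covers counting error only. Alternatives were DESeq2 1.42.0, RLE factors, library size alone, genes with at least 1 count, at least 10 counts in every mouse, a fit of all 12 mice and each mouse left out. Leaving out WT mice B6_2 and B6_3, or B6_4 and B6_6, was added after seeing the data. On simulated counts for RC/RC against WT (15243 genes, 100 genes changed at each size), edgeR recovered 50% of 2-fold and 90% of 4-fold changes with 9 false calls, and DESeq2 69% and 94% with 35. Shared sequence was searched with BLAST 2.17.0 in GENCODE vM39, and 22 members share at least 100 bases at 95% identity with another gene, so their counts are uncertain where the counting could split them.

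The members and lists were chosen with earlier results of these data known. Mice are detailed for members called in any comparison and for Tnf, Tnfrsf1a, Tnfrsf1b, Tnfsf12, Tnfrsf12a, Tnfsf11, Tnfrsf11a, Tnfrsf11b, Tnfsf13b, Tnfrsf13c, Traf2 and Traf6. From other lists, the 4 genes of smallest adjusted p in RC/RC against WT and the most abundant gene of marker lists were named. Tnfrsf21, Cd27, near-threshold members and the list genes Nfkbia and Sod2 were singled out after their values were seen. Of 142 list genes 142 were found, 2 by an older symbol.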

Additional observations from a re-analysis of the deposited data

Results flagged for a closer look

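Of 60 groups of 4 mice checked, 4 held a mouse whose gap to the nearest other mouse exceeded Dixon's 95% critical value for 4 samples, where chance gives about 1 in 20. In the RC/RC:Casp1KO group, mouse Del3_70 had 4.45 CPM of Tnfsf8 against a group median of 0.601, with a gap of 0.891 of the range. The same mouse had 5.68 CPM of Ltb against a median of 1.90 (0.856 of the range) and 13.2 CPM of Tnfrsf1b against a median of 7.13 (0.837 of the range). In these 3 genes the mouse that stood apart was the same library, which also had the highest immune marker sums of its group. At about 1 in 20, some flagged groups can arise by chance. The part of cell content in the values of mouse Del3_70 was not tested. In WT, mouse B6_6 had 0.0469 CPM of Tnfsf11 against a median of 0, which is 1 read.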

How the results depend on the processing

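Counts of called members moved with the tool. In RC/RC against WT, 7 of 38 tested members were called higher and 0 lower (9.76% and 3.18% of all genes), against 14 and 1 of 51 by DESeq2 (8.47% and 4.35%) and 11 and 1 of 38 in the fit of all 12 mice (11.3% and 5.52%). In RC/RC:Casp1KO against RC/RC the 2 called lower (4.41% of all genes) became 5 by DESeq2 (5.91%) and 1 with library size alone (1.16%), and the 3 called higher (7.23%) became 1 in the fit of all 12 mice (7.09%). For RC/RC:Casp1KO against WT the 1 called higher (1.13%) became 8 by DESeq2 (3.35%), 0 without WT mice B6_2 and B6_3 (0.25%), and 5 without WT mice B6_4 and B6_6 (7.42%), where 1 rather than 0 was lower. With 1 mouse left out, the counts ranged from 5 to 12 higher in RC/RC against WT, from 0 to 3 higher and 1 to 7 lower in RC/RC:Casp1KO against RC/RC, and from 0 to 2 higher in RC/RC:Casp1KO against WT. Some log2 fold changes that were not called changed sign. In RC/RC against WT, Traf6 (-0.0029) turned to 0.087 with library size alone, 0.0051 with genes of at least 1 count, 0.012 with at least 10 counts in every mouse and 0.062 without WT mice B6_4 and B6_6, and ran from -0.064 to 0.035 with 1 mouse left out. Pkd1 (0.056) turned to -0.23 without WT mice B6_2 and B6_3 and ran from -0.078 to 0.16 with 1 mouse left out. Tnfrsf25 (0.44) turned to -0.13 without WT mice B6_2 and B6_3, and Tnfrsf18 (-0.66) to 0.73 without WT mice B6_4 and B6_6. Tnfrsf11a in RC/RC:Casp1KO against RC/RC ran from -0.29 to 0.0094 with 1 mouse left out. In RC/RC:Casp1KO against WT, Tnfrsf12a turned to -0.019 by DESeq2, -0.0072 with RLE factors, -0.00029 with genes of at least 1 count, -0.011 without WT mice B6_2 and B6_3 and -0.0018 without WT mice B6_4 and B6_6. Tnfrsf1a turned to 0.059 with library size alone and 0.20 without WT mice B6_2 and B6_3, Tnfrsf11a to -0.066 without WT mice B6_2 and B6_3, and without WT mice B6_4 and B6_6 Tnfsf12 turned to -0.14 and Tnfrsf11b to -0.20. With 1 mouse left out these ran from -0.15 to 0.11 (Tnfrsf12a), -0.18 to 0.030 (Tnfrsf1a), -0.0029 to 0.29 (Tnfrsf11a), -0.016 to 0.21 (Tnfsf12) and -0.099 to 0.14 (Tnfrsf11b). None of these reversed values was called, and the causes were not tested. Library size alone moved the median of all genes from 0.01 to 0.14 in RC/RC:Casp1KO against WT. No paired analysis was possible because the columns carry mouse numbers and not the replicate numbers of the labels. Depth limits Tnf, Tnfsf11 and the other members with few reads per mouse.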

Other observations

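Ligand and receptor genes of the same pair did not always share a call. In RC/RC against WT, Tnfsf12 with Tnfrsf12a and Tnfsf13b with Tnfrsf13b were called on both sides, while Ltb was called and Ltbr had a log2 fold change of 0.09 ± 0.11 (edgeR adjusted p = 0.609). The Tnfsf12 call was lost in 6 of the 8 fits that left out 1 mouse, and the Tnfrsf13b call without WT mice B6_4 and B6_6. Tnfsf10, the TRAIL gene and most abundant ligand gene per length, had a log2 fold change of 0.18 ± 0.15 (edgeR adjusted p = 0.453), and its death receptor gene Tnfrsf10b had one of 0.77 ± 0.25 (edgeR adjusted p = 0.0752) without overlap between groups. Fas, the death receptor for Fas ligand, ran from 7.74 to 10.4 CPM in WT, 6.98 to 11.5 CPM in RC/RC and 6.50 to 9.25 CPM in RC/RC:Casp1KO mice. The mouse genes Tnfrsf22 and Tnfrsf23, which encode decoy TRAIL receptors, had log2 fold changes of -0.11 ± 0.20 and 0.80 ± 0.36 in RC/RC against WT (edgeR adjusted p = 0.758 and 0.174). Of the 7 members called higher in RC/RC, 7 had an RC/RC:Casp1KO mean below the RC/RC mean, which the shared RC/RC mice alone can favor, and 6 had one above the WT mean. Without the share over all genes beside them, these counts say nothing particular about the members.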
